A study of Mus musculus with 12 samples.

Results

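The 10 genes described here are the early growth response genes *Egr1*, *Egr2*, *Egr3* and *Egr4*, the *Nr4a1*, *Nr4a2* and *Nr4a3* nuclear receptor genes, and the activity-induced genes *Arc*, *Npas4* and *Ier2*. They were taken by exact match to the gene name column of the expression table, and all 10 were found among its 55487 genes. Expression was measured by bulk RNA-seq of mouse retina in 12 libraries, 2 in each of 6 groups. Each value is in FPKM, the number of sequenced fragments scaled to transcript length and to library size, and so a level per length.

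The wild-type (WT) groups were C57BL/6J mice whose eyes received 1 µL of PBS, or 1 µL of 40 mM NMDA in PBS, which is 40 nmol, into the vitreous. NMDA is an agonist of one class of glutamate receptors and in excess kills retinal ganglion cells (RGCs). The shPax6 groups had in addition an adeno-associated virus (AAV2.7m8, pU6-shPax6-GFP) that expresses a short hairpin RNA against *Pax6* from the U6 promoter, and the JNK3 KO groups were *Jnk3*-/- mice, each again with PBS or NMDA. Each library was made from more than 3 retinas, so that p-values measure only the spread between such pools. No library from eyes with the scrambled hairpin virus was analysed here, and viral infection and *Pax6* knockdown cannot be told apart in the shPax6 groups. In whole retina, fewer cells of a type and less RNA per cell cannot be told apart either.

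These genes are switched on within minutes of calcium entry or growth factor signals, from promoters that need no new protein. The EGR proteins are zinc finger transcription factors that bind GC-rich DNA. The NR4A proteins are orphan nuclear receptors that act without a known natural ligand and are governed mainly by how much of them is made. *Arc* encodes a synaptic protein that governs removal of AMPA-type glutamate receptors, *Npas4* a neuronal basic helix-loop-helix PAS factor that responds to calcium, and *Ier2* a small nuclear protein of the early growth factor response.

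Upstream DNA of the NR4A genes is shown because *Nr4a1* rose and *Nr4a2* fell in WT retina after NMDA, as given below, and a reader can compare the letters before their starts. Those starts are of the transcripts *Nr4a1-201* and *Nr4a2-203*, whose own changes are given below. A table of RefSeq promoters on GRCm38.p6 held 6 of the 10 genes in 10 windows of the 250 bases before a start. Capitals mark the CRE half-site, TGACG or its complement CGTCA, which CREB binds, and in *Nr4a1* also the EGR site, GCGTGGGCG or GCGGGGGCG on either strand. The *Nr4a1* window is chr15:101266596-101266845 on the plus strand and the *Nr4a2* window is chr2:57124004-57124253 on the minus strand, both written 5′ to 3′ towards the start.
Nr4a1: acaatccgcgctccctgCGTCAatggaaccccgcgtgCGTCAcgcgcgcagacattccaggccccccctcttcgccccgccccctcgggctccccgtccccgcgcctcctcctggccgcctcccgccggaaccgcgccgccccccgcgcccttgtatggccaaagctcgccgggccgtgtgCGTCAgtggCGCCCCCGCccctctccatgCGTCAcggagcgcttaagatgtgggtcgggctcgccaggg
Nr4a2: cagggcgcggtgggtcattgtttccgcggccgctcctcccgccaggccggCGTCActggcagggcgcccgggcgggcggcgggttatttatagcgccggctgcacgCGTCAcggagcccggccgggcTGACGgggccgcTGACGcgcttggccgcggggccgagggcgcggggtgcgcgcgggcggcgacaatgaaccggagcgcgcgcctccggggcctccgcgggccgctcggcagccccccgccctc
Each of the *Nr4a1*, *Nr4a2* and *Nr4a3* windows held 4 CRE half-sites. In *Nr4a1* they began 233, 213, 69 and 40 bases before the start, with 1 EGR site at 60 bases. In *Nr4a2* they began 200, 144, 123 and 111 bases before it. Of all 32851 windows of this length, 17.8% held at least 1 CRE half-site, 3.9% held 2 or more and 0.137% (45 windows) held 4 or more, and the EGR site was in 3.06%. The full CRE, TGACGTCA, stood in 1.55% and the NR4A monomer site, AAAGGTCA, in 1.34% of windows, and neither had a match in these windows of the members. The CArG box bound by SRF was in 1.47% of all windows and in 4 of the 5 *Egr2* windows, 3 of which overlap each other. A match describes the letters of a window and is not evidence of binding.

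The libraries were of similar depth. FPKM values of short single-transcript genes moved in steps of 1 fragment, from which 21200000 to 26900000 assigned fragments per library were estimated, and 18089 to 22259 genes lay above 0. FPKM summed to 805627 and 820180 in the WT NMDA libraries and to 541210 to 576922 in the other 10. *Pax6* stood at 92.84 and 94.56 FPKM in shPax6 PBS against 173.48 and 177.3 in WT PBS, but after NMDA it was 58.73 and 67.52 in shPax6 against 53.81 and 55.42 in WT. *Mapk10*, which encodes JNK3, was at 8.75 and 9.47 FPKM in JNK3 KO PBS against 42.79 and 50.72 in WT PBS, and at 6.65 and 13.77 in JNK3 KO NMDA against 6 and 8.98 in WT NMDA. After PBS both genes were lower in the libraries labelled as knockdown or knockout. After NMDA *Pax6* was higher in both shPax6 libraries than in both WT libraries, against the label, and the *Mapk10* libraries overlapped.

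Cell type markers moved with the groups. Summed over 10 RGC markers, the level was 566 to 587 FPKM in WT PBS and 317 to 335 in WT NMDA, 168 in both shPax6 PBS libraries and 48.8 to 55.5 in shPax6 NMDA. In JNK3 KO the RGC sum was 539 to 581 after PBS and 140 to 141 after NMDA. The 10 microglia and macrophage markers summed to 445 to 463 FPKM in shPax6 NMDA and to 57.2 to 144 in the other 10 libraries. The 8 neutrophil markers summed to 1947 to 1985 FPKM in WT NMDA, 212 to 235 in WT PBS and 5.16 to 170 in the shPax6 and JNK3 KO groups, with *Elane* at 0 in both WT groups and *Elane*, *Ly6g* and *Mpo* at 0 in both shPax6 groups and after NMDA in JNK3 KO. The part of these cells in the results below was not tested.

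The 10 genes covered a wide range of levels. *Nr4a1* and *Ier2* were above 10 FPKM in every library, *Egr1* was between 5.53 and 86.32 FPKM, and *Egr4* did not pass 0.42 FPKM. Differences were tested with limma on log2(FPKM + 0.1) over the 16471 genes whose mean exceeded 1 FPKM in at least 1 group, and called at an adjusted p (Benjamini-Hochberg over all 16471) under 0.05. On this scale the change of a low gene is understated. The test took in 8 of the 10 genes, since *Egr4* and *Nr4a3* stayed at or below a group mean of 1 FPKM throughout. *Egr3* and *Arc* passed only through their mean in shPax6 NMDA, where they were high, so that their place among the tested genes is no support for that rise. The plot of FPKM by library shows all 10 genes.

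**Figure D1:**
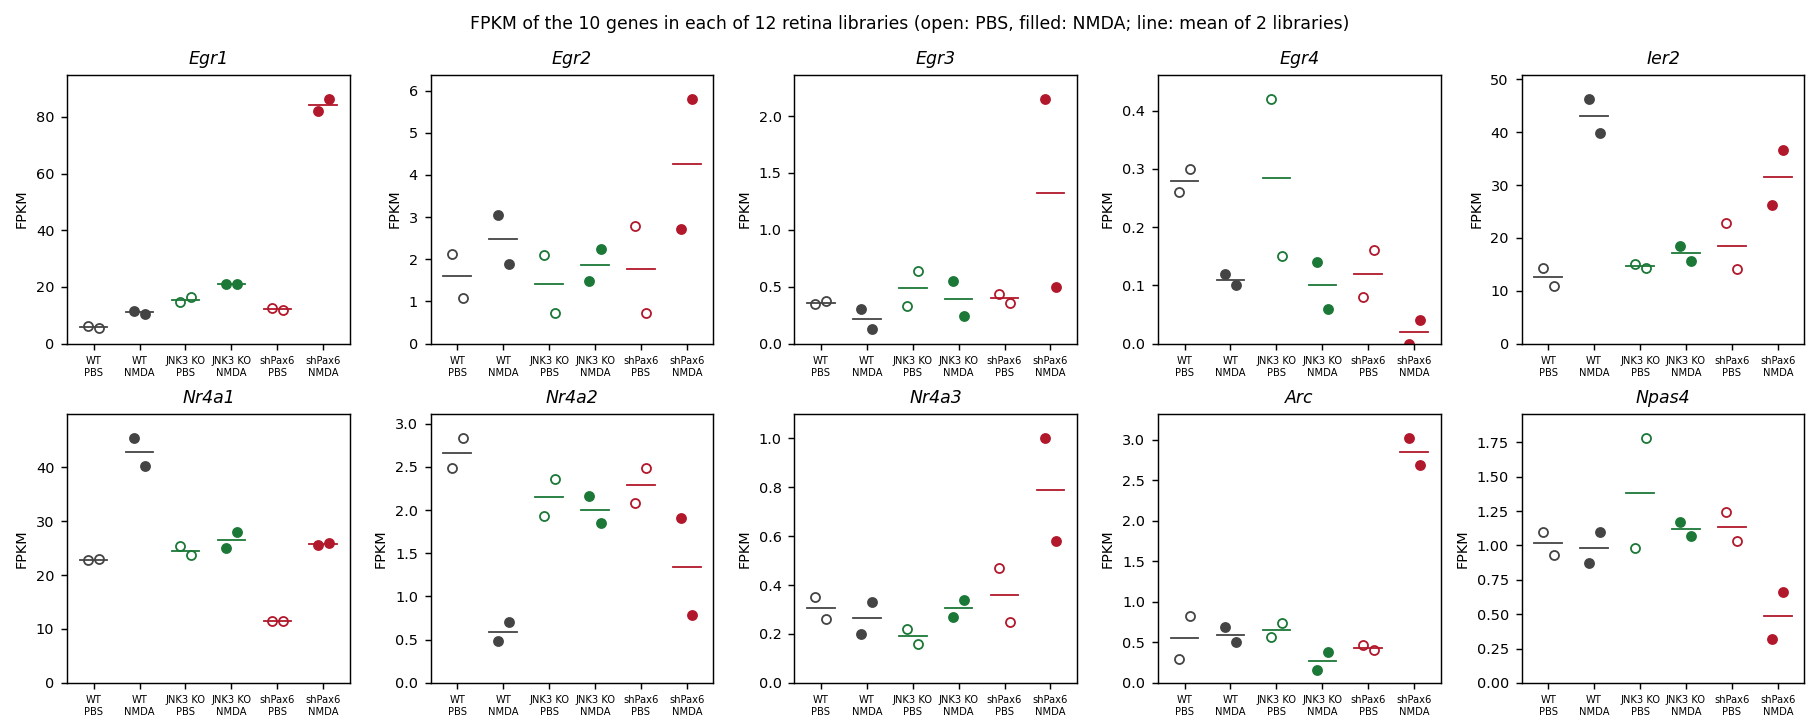
FPKM of the 10 genes in the 12 libraries, one panel per gene with its own linear axis, each point 1 library and the groups along the horizontal axis. *Egr1* in the shPax6 NMDA libraries, at 81.95 and 86.32 FPKM, stands above all other libraries, and *Nr4a2* is lowest in WT NMDA.

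*Egr1* (chr18:34859823-34864984, plus strand), whose product drives early growth factor and synaptic gene programmes, had a separate range in each of the 6 groups. From the lowest group to the highest, it stood at 5.53 and 6.14 FPKM in WT PBS, 10.4 and 11.53 in WT NMDA, 11.72 and 12.5 in shPax6 PBS, 14.57 and 16.26 in JNK3 KO PBS, 20.85 and 21.14 after NMDA in JNK3 KO, and 81.95 and 86.32 in shPax6 NMDA. No 2 groups overlapped, though not every pair of groups was tested. After NMDA *Egr1* rose 1.88-fold in WT, a log2 change of 0.90 (SE 0.10, limma adjusted p = 4.99e-05), 6.95-fold in shPax6, a log2 change of 2.79 (SE 0.10, adjusted p = 3.96e-07), and 1.36-fold in JNK3 KO, a log2 change of 0.45 (SE 0.10, adjusted p = 0.0245). The rise in shPax6 was larger than that in WT by 1.89 log2 units (SE 0.14, adjusted p = 1.31e-05). The rise in JNK3 KO was smaller than that in WT by a log2 difference of -0.45 (SE 0.14, adjusted p = 0.0244), but with every library rescaled to TPM, a scale on which each library sums to the same total, this difference was 0.13 (adjusted p = 0.50), while the median of all genes moved from 0.035 to 0.615. Without any one of the 4 JNK3 KO libraries, the *Egr1* rise in JNK3 KO had an adjusted p between 0.053 and 0.154 and was not called.

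*Egr1* was also higher after PBS in both modified retinas. Against WT PBS it was 2.08-fold higher in shPax6 PBS, a log2 difference of 1.04 (SE 0.10, limma adjusted p = 0.000207), and 2.64-fold higher in JNK3 KO PBS, a log2 difference of 1.39 (SE 0.10, adjusted p = 0.00116). Both JNK3 KO PBS libraries were above both WT NMDA libraries. With the spread taken from the JNK3 KO PBS and WT PBS libraries alone, the JNK3 KO difference had an adjusted p of 0.137.

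*Egr2* (chr10:67535475-67542188, plus strand), known for its part in myelination and in immune cells, varied within groups. It was at 1.09 and 2.12 FPKM in WT PBS, 1.89 and 3.06 in WT NMDA, 0.73 and 2.79 in shPax6 PBS, 2.72 and 5.8 in shPax6 NMDA, 0.72 and 2.1 in JNK3 KO PBS, and 1.49 and 2.25 after NMDA there. PBS and NMDA libraries overlapped in all 3 genotypes. The log2 change in shPax6 was 1.40 (SE 0.70, limma adjusted p = 0.17) and in WT 0.63 (SE 0.70, adjusted p = 0.47).

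*Egr3* (chr14:70077203-70082614, plus strand), a target of EGR1 in neurons, was low. It lay between 0.13 and 0.64 FPKM in 11 libraries and at 2.15 FPKM in 1 shPax6 NMDA library, whose partner was at 0.5. The log2 change of *Egr3* in shPax6 was 1.22 (SE 0.70, limma adjusted p = 0.22). *Egr4* (chr6:85511121-85513589, minus strand), the least expressed member, was not tested. It was at 0.26 and 0.3 FPKM in WT PBS and 0.1 and 0.12 in WT NMDA, and listed at 0 and 0.04 FPKM in shPax6 NMDA.

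*Nr4a1* (chr15:101254269-101274795, plus strand), a factor of T cell, macrophage and neuronal activation, rose after NMDA in 2 of the 3 genotypes. It was at 22.7 and 22.88 FPKM in WT PBS and 40.3 and 45.35 in WT NMDA, at 11.39 and 11.55 in shPax6 PBS and 25.6 and 25.88 in shPax6 NMDA, and in JNK3 KO at 23.66 and 25.31 after PBS and 25.08 and 28.03 after NMDA. The groups did not overlap between PBS and NMDA in WT or in shPax6, and overlapped in JNK3 KO. The rise was 1.88-fold in WT, a log2 change of 0.90 (SE 0.088, limma adjusted p = 2.0e-05), and 2.24-fold in shPax6, a log2 change of 1.16 (SE 0.088, adjusted p = 2.04e-05). In JNK3 KO the log2 change was 0.12 (SE 0.088, adjusted p = 0.49). The difference of this change from the WT change was -0.79 (SE 0.12, adjusted p = 0.00062). Under TPM, with its shift of all genes, that difference between JNK3 KO and WT was -0.20 (adjusted p = 0.216). The difference of 0.25 between shPax6 and WT (SE 0.12, adjusted p = 0.12) was not called.

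In shPax6 retina after PBS, *Nr4a1* and *Egr1* differed from WT in opposite directions. *Nr4a1* in shPax6 PBS was at 0.503 of its WT PBS level, a log2 difference of -0.98 (SE 0.088, limma adjusted p = 0.00014), while *Egr1* was higher. After NMDA, *Nr4a1* in shPax6 reached 25.6 and 25.88 FPKM, above the 22.7 and 22.88 of WT PBS and below WT NMDA.

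*Nr4a2* (chr2:57106830-57124003, minus strand), which maintains dopaminergic neurons, fell after NMDA in WT. It was at 2.49 and 2.83 FPKM in WT PBS and 0.48 and 0.7 in WT NMDA, a ratio of 0.222 and a log2 change of -2.02 (SE 0.39, limma adjusted p = 0.00158) that was -1.20 with a pseudocount of 1. In JNK3 KO it was at 1.93 and 2.36 FPKM after PBS and 1.85 and 2.16 after NMDA, which overlapped. The difference between the JNK3 KO and WT changes was 1.93 (SE 0.55, adjusted p = 0.016), with an adjusted p of up to 0.057 in 4 of the 12 fits that leave out 1 library. In shPax6 *Nr4a2* was at 2.08 and 2.49 FPKM after PBS and 0.78 and 1.91 after NMDA, a log2 change of -0.84 (SE 0.39, adjusted p = 0.14). The amacrine markers, 9 genes of inner retinal neurons, summed to 275 to 281 FPKM in WT PBS and 111 to 122 in WT NMDA. In JNK3 KO the amacrine sum was 244 to 253 after PBS and 204 to 209 after NMDA. In shPax6 it was 214 to 227 after PBS and 91.4 to 93.0 after NMDA, the lowest of all groups. The part of these markers in the *Nr4a2* values was not tested. *Nr4a3* (chr4:48045153-48086447, plus strand) lay between 0.16 and 0.47 FPKM in 10 libraries and at 0.58 and 1.0 in shPax6 NMDA.

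*Arc* (chr15:74669083-74672570, minus strand) was raised in 1 group. It was at 2.69 and 3.02 FPKM in shPax6 NMDA and between 0.16 and 0.82 in the other 10 libraries. Its rise in shPax6 was 6.56-fold, a log2 change of 2.47 (SE 0.51, limma adjusted p = 0.00596) that was 1.42 with a pseudocount of 1, against 0.18 (SE 0.51, adjusted p = 0.79) in WT and -1.09 (SE 0.51, adjusted p = 0.23) in JNK3 KO. The shPax6 and WT changes differed by 2.28 (SE 0.72, adjusted p = 0.0257). This difference was not called with no filter on low values (adjusted p = 0.0515), after quantile normalization (1.19, adjusted p = 0.31), or without WT PBS replicate 2, WT NMDA replicate 2 or shPax6 PBS replicate 2.

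*Npas4* (chr19:4984355-4990316, minus strand) was called in none of the 7 comparisons by limma. It was at 0.93 and 1.1 FPKM in WT PBS and 0.87 and 1.1 in WT NMDA, and at 1.03 and 1.24 in shPax6 PBS and 0.32 and 0.66 in shPax6 NMDA. Its log2 change in shPax6, -1.12 (SE 0.41), had an unadjusted p of 0.023 in limma and an adjusted p of 0.0685. In other settings this fall was called in 3 of 12. The difference between the shPax6 and WT changes of *Npas4*, -1.08 (SE 0.58), was called in 1 of 12.

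*Ier2* (chr8:84661331-84662852, minus strand) rose in WT and shPax6. It was at 10.82 and 14.23 FPKM in WT PBS and 39.94 and 46.29 in WT NMDA, a 3.44-fold rise and a log2 change of 1.78 (SE 0.24, limma adjusted p = 0.000178). In shPax6 it was at 14.09 and 22.91 FPKM after PBS and 26.32 and 36.55 after NMDA, a log2 change of 0.78 (SE 0.24, adjusted p = 0.0379) that was called in 5 of 12 other settings and in 2 of the 12 fits without 1 library. In JNK3 KO it was at 14.37 and 15.02 FPKM after PBS and 15.57 and 18.53 after NMDA, a log2 change of 0.21 (SE 0.24, adjusted p = 0.68). The JNK3 KO change was below the WT change by -1.58 (SE 0.34, adjusted p = 0.00404) and the shPax6 change was below it by -1.0005 (SE 0.34, adjusted p = 0.0373). The shPax6 difference was called in 6 of 12 other settings and in 3 of the 12 fits without 1 library, and was -0.48 under TPM and -0.41 (adjusted p = 0.349) after correction for gene length. That correction also took the *Ier2* rise in WT to 0.98, still called, and the JNK3 KO difference to -0.64 (adjusted p = 0.159), which was not. In point estimates the order of the changes was WT, shPax6 and JNK3 KO for *Ier2*, and shPax6, WT and JNK3 KO for *Egr1*. The shPax6 and JNK3 KO changes were not tested against each other.

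**Figure D2:**
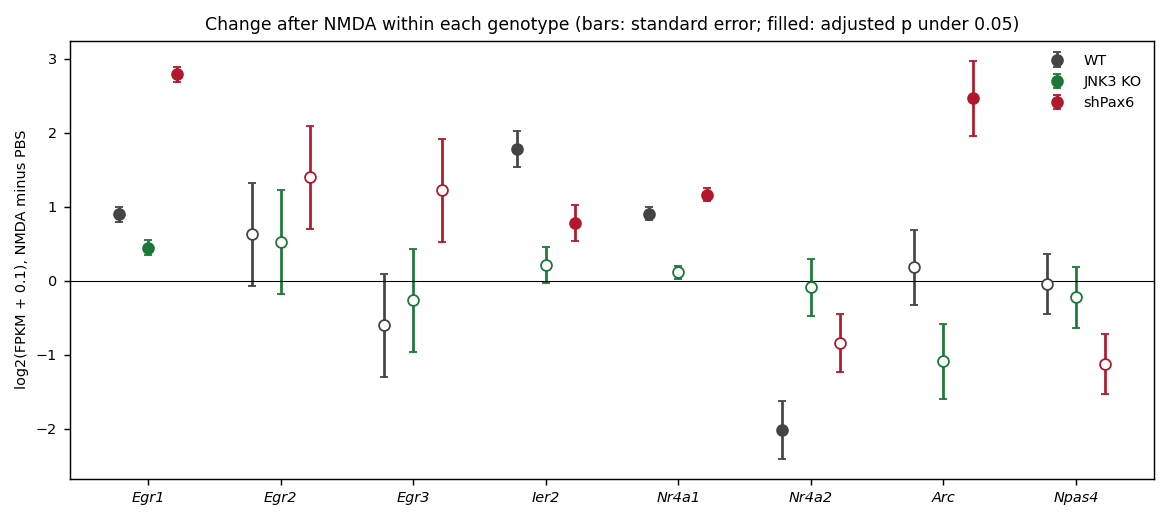
Log2 change after NMDA, with its SE, of the 8 tested genes in WT, shPax6 and JNK3 KO, filled points being those at an adjusted p under 0.05. *Egr1* is filled in all 3 genotypes, at 0.90, 2.79 and 0.45, while *Nr4a1* and *Ier2* are filled in WT and shPax6, *Nr4a2* in WT and *Arc* in shPax6.

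Read against all genes, the counts were as follows. After NMDA in WT, 3 of the 8 tested genes were higher and 1 lower, where 26% of all tested genes were called higher and 33.8% lower. In shPax6, 4 were higher and 0 lower (1 lower at an unadjusted p under 0.05 in limma), against 19.1% and 11% of all genes. In JNK3 KO, 1 was higher and 0 lower (0 lower unadjusted), against 4.33% and 6.1%. The median log2 change of the 8 genes was 0.40 in WT against -0.094 over all tested genes, 1.19 in shPax6 against 0.098, and 0.013 in JNK3 KO against -0.015. *Arc* is among the 4 called higher in shPax6, and *Arc* and *Egr3* enter the median there. Both passed the filter only through shPax6 NMDA, so this count and median are no support for a rise in that group. After PBS, shPax6 against WT gave 1 higher and 1 lower, with 5.36% and 11.2% of all genes called, and JNK3 KO against WT gave 1 higher and 0 lower (0 lower unadjusted), with 1.1% and 0.407%. The shPax6 change exceeded the WT change in 2 genes, *Arc* among them, and was below it in 1, with 31.4% and 18.3% of all genes called. The JNK3 KO change exceeded that of WT in 1 and was below it in 3, with 27.9% and 23.5%. The comparisons share the WT PBS and WT NMDA libraries and are not independent of each other.

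The scale bears on the WT values. With each library rescaled to TPM, the median change of all genes in WT moved from -0.094 to -0.656, and *Egr1* changed by 0.33 (adjusted p = 0.0219) and *Nr4a1* by 0.33 (adjusted p = 0.00866). TPM shifts all genes of a library alike, so that, apart from the pseudocount, the place of a gene among all genes is the same on both scales.

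The transcript table splits *Nr4a1* into 4 transcripts. *Nr4a1-201* was at 7.93 and 12.7 FPKM in WT PBS and 35.45 and 31.66 in WT NMDA, and *Nr4a1-202*, which starts 12577 bases farther upstream, was at 13.1 and 9.06 and then 9.84 and 7.24. The share of *Nr4a1-201* in the gene was 45.2% ± 14.6 (SD, n = 2) in WT PBS and 78.4% ± 0.28 (SD, n = 2) in WT NMDA. In JNK3 KO *Nr4a1-201* was at 12.47 and 12.58 FPKM after PBS and 9.24 and 12.02 after NMDA. Fitted over 49940 transcripts, the change of *Nr4a1-201* was not called in WT (1.73, SE 1.52, limma adjusted p = 0.42) or in shPax6 (4.55, SE 1.52, adjusted p = 0.12), where 11.7% and 4.71% of transcripts were called higher. The 2 shPax6 PBS libraries gave it 0 and 6.29 FPKM, and *Nr4a1-202* 9.82 and 4.05, while the gene as a whole was at 11.39 and 11.55. The window printed above for *Nr4a1* lies before the start of *Nr4a1-201*. That for *Nr4a2* lies before the start of *Nr4a2-203*, whose change in WT was not called (-0.52, SE 0.65, limma adjusted p = 0.58). Of the *Nr4a2* transcripts tested, *Nr4a2-201* was called lower in WT (-3.05, SE 0.75, limma adjusted p = 0.014), where 23.5% of transcripts were called lower. It was at 1.43 and 0.35 FPKM in WT PBS and 0 in both WT NMDA libraries. *Nr4a2-202*, not tested, was at 0.26 and 1.3 FPKM in WT PBS and 0 and 0.17 in WT NMDA. *Nr4a2-205*, also not tested, was at 0.19 and 0.22 and then 0 in both. *Nr4a2-201* held 57.7% and 12.3% of the transcript FPKM in the WT PBS libraries and was at 0 in every shPax6 library. The fall of the gene is therefore not assigned to a single transcript.

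*Egr1* came almost wholly from one transcript. *Egr1-202* held 90.4% to 100% of its FPKM in every library, and it rose by 0.96 in WT (SE 0.12, limma adjusted p = 0.000507) and by 2.76 in shPax6 (SE 0.12, adjusted p = 2.0e-05). In JNK3 KO its change of 0.40 (SE 0.12, adjusted p = 0.23) was not called, unlike that of the gene.

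**Figure D3:**
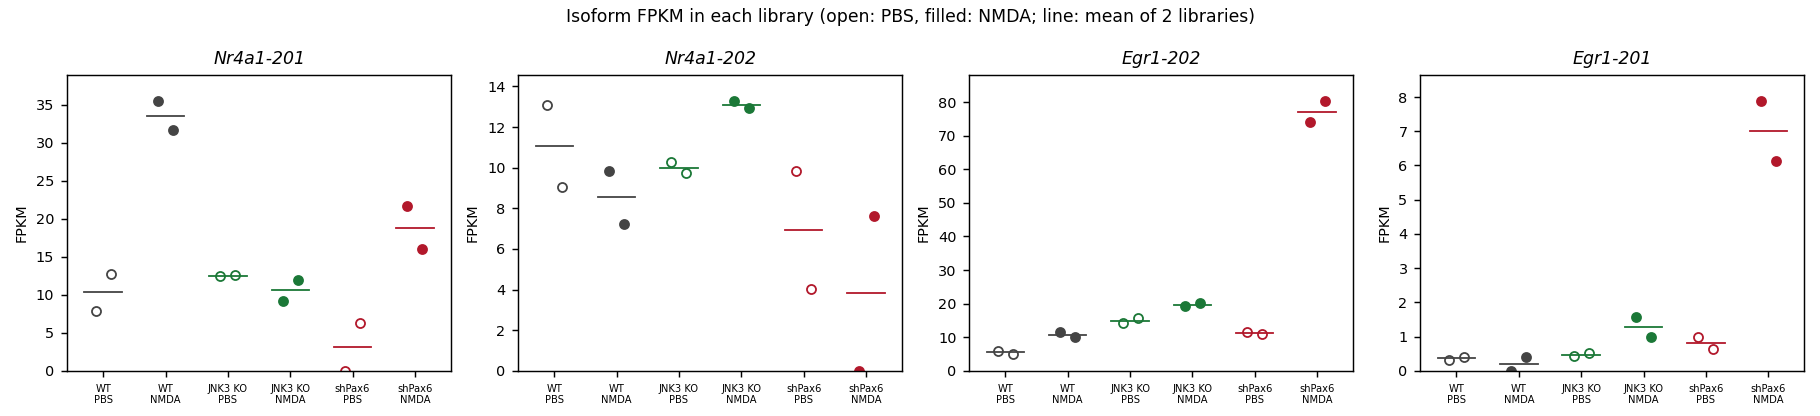
FPKM per library of the transcripts *Nr4a1-201*, *Nr4a1-202*, *Egr1-202* and *Egr1-201* in the 6 groups, each point 1 library on a linear axis (open after PBS, filled after NMDA) and each line the mean of 2. In WT NMDA *Nr4a1-201* is at 35.45 and 31.66 FPKM and *Nr4a1-202* at 9.84 and 7.24, differences from PBS that were not called.

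For the low genes, FPKM and fragments did not always give the same picture. *Egr3* was at 2.15 and 0.5 FPKM in the shPax6 NMDA libraries, but at an estimated 53 and 38 fragments, or 2.52 and 1.58 CPM, the estimated fragments scaled to library size and not divided by length. *Nr4a3* was at 1.0 and 0.58 FPKM and at an estimated 29 and 53 fragments, so that the order of the libraries turned. In the first of these libraries the short transcripts *Egr3-203* (489 bases) and *Nr4a3-204* (895 bases) were given 1.26 and 0.86 FPKM and were at 0 in the second. *Arc* was at 8.80 and 7.76 CPM in shPax6 NMDA and at 0.463 to 2.37 in the other 10 libraries, as separate as in FPKM. *Egr2* was at 7.41 and 11.1 CPM in shPax6 NMDA and 3.66 and 1.43 in shPax6 PBS, and on this scale, an alternative chosen after seeing the data, its rise of 1.93 was called (limma adjusted p = 0.00645). That made 5 of the 8 genes, *Arc* among them, higher in shPax6 after NMDA, where 23.8% of all 16442 genes tested were. *Egr2* was called there in only this 1 of 12 other settings. *Arc* passed the filter only through shPax6 NMDA, so this count is no support for a rise in that group.

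**Figure D4:**
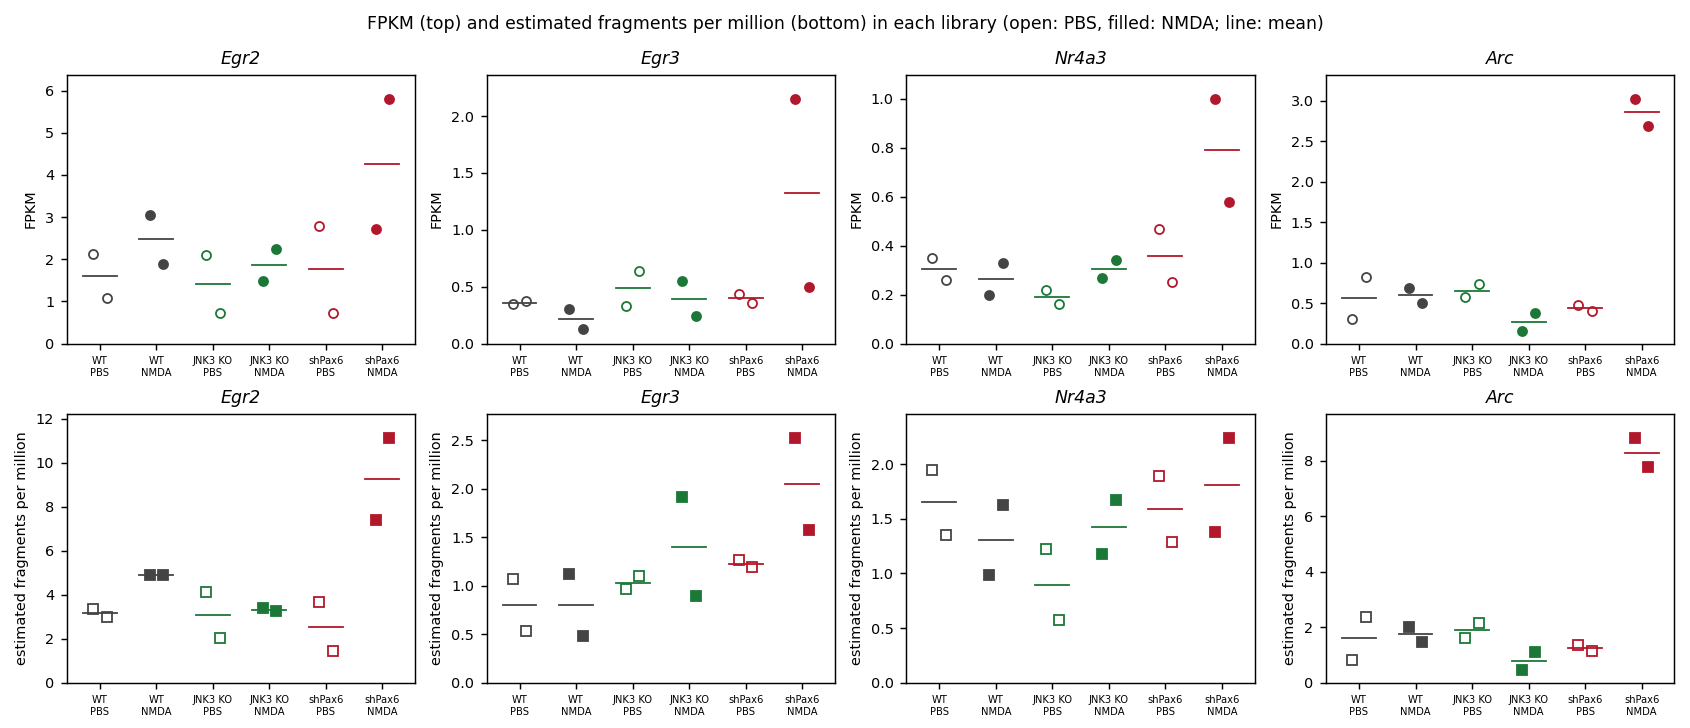
FPKM (top) and estimated fragments scaled to library size, CPM (bottom), per library for *Egr2*, *Egr3*, *Nr4a3* and *Arc* in the 6 groups, each point 1 library (open after PBS, filled after NMDA) and each line a mean. *Arc* keeps its separation on both scales, whereas the gap between the shPax6 NMDA libraries of *Egr3*, 2.15 and 0.5 FPKM, narrows to 2.52 and 1.58 CPM.

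Other rapidly induced genes, a list of 31 without the 10 above, were called higher in WT and shPax6 more often than lower. After NMDA 14 were higher and 2 lower in WT, 24 higher and 0 lower in shPax6 (1 lower at an unadjusted p under 0.05 in limma), and 3 higher and 0 lower in JNK3 KO (7 and 2 unadjusted). Of all tested genes, 26% were higher and 33.8% lower in WT, 19.1% and 11% in shPax6, and 4.33% and 6.1% in JNK3 KO. The list's medians were 0.57, 1.33 and 0.15, against -0.094, 0.098 and -0.015 over all genes. *Fosl1*, a FOS family member of the AP-1 factor, rose from 0.48 and 0.76 FPKM to 13.2 and 15.13 in WT, a log2 change of 4.33 (SE 0.50, adjusted p = 5.99e-05), and by 4.88 in shPax6 and 2.74 in JNK3 KO. *Gadd45g*, a stress and cell cycle gene, changed by 2.14 in WT, 1.34 in shPax6 and -0.09 in JNK3 KO. *Ppp1r15a*, which restores translation after stress, changed by 1.81, 1.45 and 0.21. In the other direction *Fbxo33*, an F-box ubiquitin ligase subunit, changed by -1.34 in WT and the clock gene *Per1* by -0.49. The JNK3 KO change was below that of WT for 12 of the 31 genes and above it for 3, where 23.5% and 27.9% of all genes were. The shPax6 change was above that of WT for 14 and below it for 2, where 31.4% and 18.3% of all genes were.

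Of 15 delayed activity-induced genes, many of which encode secreted or synaptic products of neurons, 1 was higher and 10 lower in WT, 2 higher and 10 lower in shPax6, and 0 higher (0 unadjusted in limma) and 4 lower in JNK3 KO, with medians of -1.33, -1.22 and -0.41. The shares of all genes called lower were 33.8%, 11% and 6.1%, and those called higher 26%, 19.1% and 4.33%. *Nrn1*, a neurite growth factor anchored on the surface of neurons including RGCs, changed by -2.17 in WT, -3.84 in shPax6 and -2.49 in JNK3 KO. *Kcna1*, a potassium channel, changed by -3.41 and *Pcsk1*, a prohormone convertase, by -2.73 in WT. *Gadd45a*, a DNA damage response gene, was the one that rose in WT, by 1.18 (SE 0.15, adjusted p = 9.29e-05), and it rose in shPax6 by 0.65. The other that rose in shPax6 was *Inhba*, a subunit of activin, named after its values were seen, by 3.17 (SE 0.43, adjusted p = 0.000616), while it changed by -1.43 in WT (adjusted p = 0.0163). RGC markers fell in the same comparisons, 9 of 10 in WT, 8 in shPax6 and 7 in JNK3 KO, and their part in this was not tested.

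Regulators and partners, 25 genes that include the NAB corepressors of EGR proteins, the RXR partners of NR4A1 and NR4A2, and the kinases and factors upstream of these promoters, were counted in the same way. In WT 4 were higher and 14 lower, in shPax6 5 and 3, and in JNK3 KO 3 and 1. Of all genes, 26% and 33.8%, 19.1% and 11%, and 4.33% and 6.1% were. *Elk4* and *Elk3*, ternary complex factors that act with SRF, rose in WT by 0.95 and 0.67, and *Mapk3*, which encodes ERK1, by 0.60. *Rps6ka5*, a kinase of CREB and histone H3, changed by -2.15 in WT and 0.08 in shPax6, *Camk4*, a calcium-dependent kinase of CREB, by -2.04 in WT, and *Arnt2*, the partner of NPAS4, by -1.82.

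**Figure D5:**
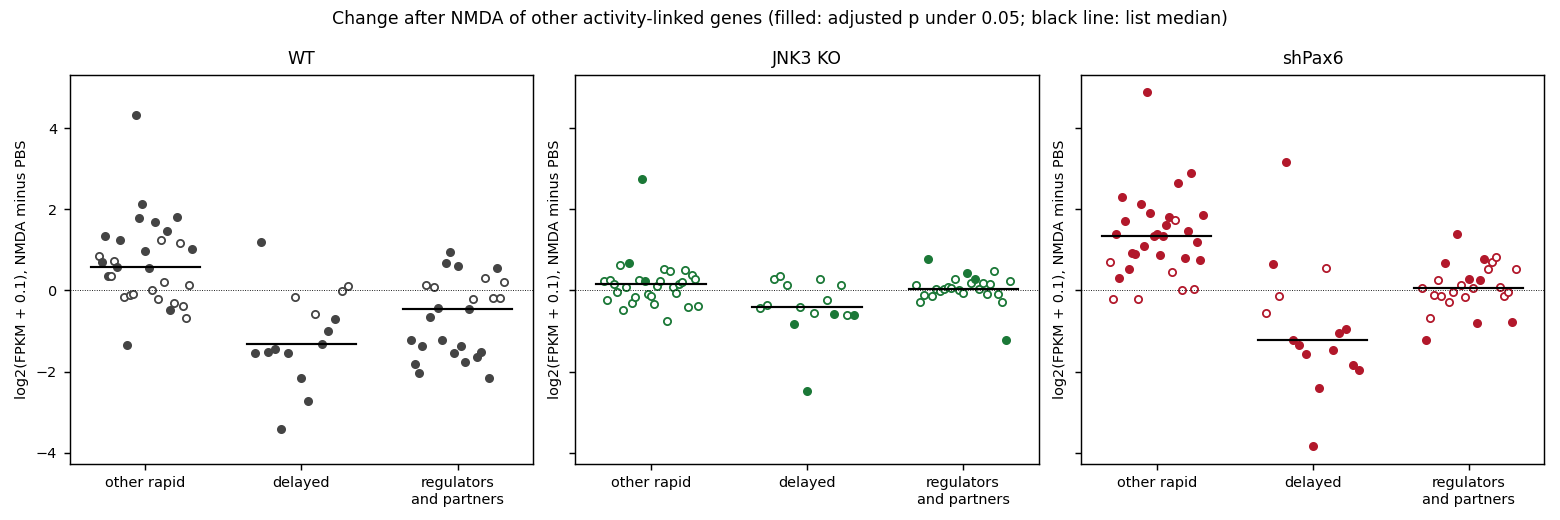
Log2 change after NMDA of every tested gene of the 3 lists (other rapid, delayed, and regulators and partners) in WT, shPax6 and JNK3 KO, each point 1 gene (filled at an adjusted p under 0.05) and each line a median. The median of the rapid genes is 0.57 in WT, 1.33 in shPax6 and 0.15 in JNK3 KO, and that of the delayed genes is -1.33, -1.22 and -0.41.

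Across the 12 libraries the members did not follow 1 profile. As a description over libraries that share their groups, Pearson r on log2(FPKM + 0.1) was 0.70 between *Egr1* and *Arc*, -0.92 between *Nr4a2* and *Ier2*, and -0.68 between *Nr4a2* and *Nr4a1*. The genes most like the mean profile of the 8 tested members were *Igf2bp2* (r = 0.955), *Pik3ap1* (0.944), *2310022B05Rik* (0.941), *Trim8* (0.939) and *Mfap4* (0.929). That profile includes *Arc* and *Egr3*, which passed the filter only through shPax6 NMDA. Likeness to it, or to *Arc* or *Egr3*, is therefore no support for a rise in that group. The gene most like *Egr1* was *Inka2* (0.963), like *Egr2* *Alg12* (0.943), like *Egr3* *Ctbs* (0.910), like *Nr4a1* *Lad1* (0.979), like *Nr4a2* *Epha6* (0.974), like *Arc* *H2-Aa* (0.943), like *Npas4* *Gm26592* (0.922) and like *Ier2* *Smim27* (0.967). *H2-Aa*, an MHC class II gene of antigen-presenting cells, was at 95.98 and 100.57 FPKM in shPax6 NMDA and 9.33 to 21.65 in the other 10 libraries, beside the higher microglia and macrophage markers of that group.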

How the data were processed

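Whole-retina RNA was sequenced as paired reads (2 × 101 bases) from TruSeq mRNA libraries. Per the submitters' processing notes and the study's methods, the authors used STAR 2.7.1a, RSEM 1.3.3, GRCm38.p6, and edgeR 3.36.0 in R 4.1.0, and deposited gene and transcript FPKM. FPKM are not counts, so limma 3.58.1 (R 4.3.3; lmFit, contrasts.fit, eBayes with trend) was fitted to log2(FPKM + 0.1) over all 6 groups (6 residual degrees of freedom), for genes whose mean passed 1 FPKM in any group, with Benjamini-Hochberg adjustment over all of them. The fit was tested on simulated data.

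Groups came from the sample titles. Differences between NMDA changes were interaction contrasts. Fragments per library were estimated from the FPKM steps of single-transcript genes of 600 to 1500 bases with up to 8 fragments, 74.6% to 89.8% of which lay within 0.2 of a whole number, where an even spread gives 40%. These estimates cover counting only.

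The 10 genes, the lists and the tests were chosen with earlier results of these data known. Named list genes were up to 3 with the largest rise and 3 with the largest fall in WT after NMDA, among those called and with non-overlapping libraries. Named look-alikes had the highest Pearson r. Alternatives were other pseudocounts, filters, scalings and spreads, a replicate block, and leaving out each library.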

Additional observations from a re-analysis of the deposited data

Results flagged for a closer look

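In 7 cases the NMDA response of a gene differed between genotypes by the interaction contrast in limma. For shPax6 minus WT, the log2 differences were 1.89 for *Egr1* (adjusted p = 1.31e-05), 2.28 for *Arc* (adjusted p = 0.0257) and -1.0005 for *Ier2* (adjusted p = 0.0373), the last called in 6 of 12 other settings and 3 of 12 fits without 1 library. For JNK3 KO minus WT, they were -0.45 for *Egr1* (adjusted p = 0.0244), -0.79 for *Nr4a1* (adjusted p = 0.00062), 1.93 for *Nr4a2* (adjusted p = 0.016) and -1.58 for *Ier2* (adjusted p = 0.00404), which was -0.64 (adjusted p = 0.159) after length correction. *Arc* passed the filter only through shPax6 NMDA, where it was high, so its place here is no support for that rise. Its difference was called in 9 of 11 other settings, and was not called after quantile normalization (limma adjusted p = 0.31). Under TPM the JNK3 KO minus WT differences of *Egr1* (0.13, adjusted p = 0.50) and *Nr4a1* (-0.20, adjusted p = 0.216) were not called. All 7 use the same WT PBS and WT NMDA libraries. With 2 libraries per group, single outlying libraries were not tested for.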

How the results depend on the processing

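The calls of *Egr1*, *Nr4a1*, *Nr4a2* and *Ier2* in WT, of *Egr1* and *Nr4a1* in shPax6 after NMDA and after PBS, and of *Egr1* for shPax6 minus WT held at an adjusted p under 0.05 in 12 other settings and in the 12 fits without 1 library. Rescaling to TPM turned the *Egr1* difference of JNK3 KO minus WT to 0.13 and left 2 members called in that comparison. Of all 16471 genes, 6973 were called higher and 2105 lower there under TPM, against 4597 and 3875 without rescaling. Thresholds joined from separate analyses of the study were also applied: unadjusted limma p under 0.05, absolute log2 change above 1, and FPKM above 1. The study set them on transcripts with edgeR, and its limit on the variance-mean ratio was left out here. Members called under these thresholds numbered 2 in WT, 4 in shPax6 (3 higher and 1 lower), 0 in JNK3 KO, 1 in shPax6 PBS and 1 in JNK3 KO PBS. For shPax6 minus WT there were 3, and for JNK3 KO minus WT 2. The share of all genes called under these thresholds, or under the spreads, filters and left-out libraries below, is not given here. With the spread from the groups compared alone, 0 members were called in JNK3 KO and 0 in JNK3 KO PBS, and with no filter 1 was called for shPax6 minus WT. Leaving out 1 library gave 0 to 1 in JNK3 KO after NMDA (0 without any one of its 4 libraries), 1 to 6 for shPax6 minus WT (1 without WT PBS or WT NMDA replicate 2, 6 without shPax6 NMDA replicate 2) and 2 to 4 for JNK3 KO minus WT (2 without WT PBS replicate 2, WT NMDA replicate 1 or JNK3 KO NMDA replicate 1). Where a group kept 1 library, it was assumed to vary like the others. The causes were not tested.

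Same-numbered libraries did not deviate together (correlations of -0.0973 to 0.0858 over 15 group pairs). This gives no sign that the numbers pair them, but with 2 libraries per group it cannot exclude a pairing. A fit with the replicate block called 4 members in WT, 4 in shPax6 and 1 in JNK3 KO, 2 in shPax6 PBS, 1 in JNK3 KO PBS, and 3 and 4 in the differences of response, as without it.

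Scaling moved the share of higher calls among all genes: in WT from 43.5% to 21.4% under TPM, in shPax6 from 63.4% to 44.0% after quantile normalization, for shPax6 minus WT from 63.2% to 83.7% under TPM and 46.5% after length correction, and for JNK3 KO minus WT from 54.3% to 76.8% under TPM. In shPax6 PBS it moved from 32.4% to 47.1% after length correction, in JNK3 KO PBS from 73.1% to 32.1% after quantile normalization, and in JNK3 KO from 41.5% to 52.5% in CPM. *Egr3*, *Egr4*, *Nr4a3* and *Arc* rest on few fragments, as low as 12, 0, 15 and 12 in a library.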
